A study of Mus musculus with 12 samples.

Results

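The subject is 10 collecting duct genes, read in isolated proximal tubules of mouse kidney: 6 that mark principal cells (Aqp2, Aqp3, Scnn1b, Scnn1g, Avpr2 and Hsd11b2) and 4 that mark intercalated cells (Slc26a4, Atp6v1b1, Foxi1 and Slc4a1). They are 10 of 18193 genes that the array's annotation names by 1 symbol, and each gene's value is that of its brightest probe set by mean over the 12 arrays. Hybridizations came from 4 groups of mice aged 20 weeks on normal chow, 3 arrays each. Wild type and catalase-Tg mice have an intact leptin receptor, while dB/dB and dB/dB catalase-Tg mice carry its loss-of-function mutation, which leads to obesity and diabetes. Catalase-Tg mice carry a transgene for catalase, the enzyme that breaks down hydrogen peroxide, and dB/dB catalase-Tg mice carry both. Published work on the model, rather than the labels, describes a rat catalase under the promoter of Kap, an androgen-regulated gene of the proximal tubule. The labels give no sex or strain and do not say that samples of a group came from separate or pooled animals. A p-value therefore reflects sample-to-sample spread alone, and that spread could be technical.

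The collecting duct is the last segment of the nephron, where the final water, salt and acid content of urine is set. Principal cells take up water through aquaporins under vasopressin and sodium through the epithelial sodium channel ENaC under aldosterone. Intercalated cells move acid or base with a vacuolar proton pump and with chloride-bicarbonate exchangers, and the forkhead factor Foxi1 is required for their identity. None of these genes is a marker of the proximal tubule cell, the cell that the Percoll gradient was meant to enrich. In bulk RNA, fewer cells of a type and less RNA per cell cannot be told apart.

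The promoters of 3 intercalated cell genes are shown because Slc26a4 and Atp6v1b1 varied most among the 10 genes and Foxi1 is the regulator of that cell type. Each run goes from 250 bases before the gene's start to 50 after it (RefSeq, GRCm38.p6), on the gene's own strand, and capitals mark a match to a forkhead core motif. They lie at chr12:31559935-31560234 on the minus strand, chr6:83742767-83743066 on the plus strand and chr11:34208040-34208339 on the minus strand.
Slc26a4: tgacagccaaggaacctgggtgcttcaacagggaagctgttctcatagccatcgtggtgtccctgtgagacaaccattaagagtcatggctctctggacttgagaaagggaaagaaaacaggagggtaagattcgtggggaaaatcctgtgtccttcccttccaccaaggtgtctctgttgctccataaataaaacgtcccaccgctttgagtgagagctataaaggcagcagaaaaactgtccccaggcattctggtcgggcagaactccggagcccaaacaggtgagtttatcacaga
Atp6v1b1: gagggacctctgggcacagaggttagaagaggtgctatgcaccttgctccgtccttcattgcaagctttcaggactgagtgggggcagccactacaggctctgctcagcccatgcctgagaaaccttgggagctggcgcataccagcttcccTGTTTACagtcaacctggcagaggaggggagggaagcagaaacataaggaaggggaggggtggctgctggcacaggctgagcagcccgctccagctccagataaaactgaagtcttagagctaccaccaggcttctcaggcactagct
Foxi1: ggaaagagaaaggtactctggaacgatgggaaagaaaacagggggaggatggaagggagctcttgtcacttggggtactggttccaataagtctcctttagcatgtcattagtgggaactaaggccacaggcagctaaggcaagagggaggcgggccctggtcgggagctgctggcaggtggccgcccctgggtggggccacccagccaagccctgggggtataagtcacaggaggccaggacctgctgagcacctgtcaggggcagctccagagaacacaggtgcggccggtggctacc

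Promoters of 8 of the 10 genes were in the table. The motif TGTTTAC, searched on both strands, was in 2 of the 8, from position -98 to -92 of Atp6v1b1 and from -131 to -125 of Avpr2, counted from the start, and in 3.65% of all 32851 promoters. The spellings TGTTTAT (4.6% of all) and TGTTTGC (5.07%) were in none of the 8. A pair of CCAG repeats as bound by the CP2 family, to which the collecting duct factor Tfcp2l1 belongs, was taken as CCAG, then 5 or 6 bases of any kind, then CCAG. It was in 3 of the 8 (Aqp3, Scnn1g and Avpr2) and in 6.76% of all. The cyclic AMP element TGACGTCA (1.79%), the steroid receptor element (AGAACA, 3 bases, TGTNCT; 0.0396%) and the HNF1 element (GTTAAT, 1 base, ATTAA; 0.0609%) were in none of the 8. A match describes these letters and is not evidence of binding.

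Values are log2 expression as deposited, with a floor of 2.302 and a maximum of 15.66. The fit took probe sets exceeding 4 on 3 or more arrays, and 5 of the 10 genes were among them: Aqp3, Hsd11b2, Slc26a4, Atp6v1b1 and Slc4a1. The other 5 are described by level only. Slc26a4 exceeded 4 on 6 arrays, those of dB/dB, wild type 1, and dB/dB catalase-Tg 1 and 3, so it entered through the arrays where it was high. Between 36.9% and 38.5% of probe sets were above 4 on an array, and the number of arrays limits the precision. Wild type 1 and dB/dB catalase-Tg 1 correlated better with the dB/dB arrays (mean r 0.987 and 0.983 across probe sets) than with their own group (0.954 and 0.961). Wild type 2 and 3 and dB/dB catalase-Tg 2 and 3 correlated better with catalase-Tg (0.982 to 0.985) than with their own groups (0.963 to 0.978). Catalase-Tg 1 correlated with its own group at 0.976, and together these 3 arrays had the lowest array weights (0.172 to 0.287). Xist, the transcript of the inactive X of female cells, read 11.91 and 6.72 on wild type 2 and 3 and at most 2.67 elsewhere. The Y-linked Eif2s3y was at the floor on wild type 2 alone, and wild type 3 read 7.89 for it beside its Xist. Every comparison that includes wild type carries this difference, and the part of sex in it was not tested. These arrays are named wherever a result rests on them.

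**Figure D1:**
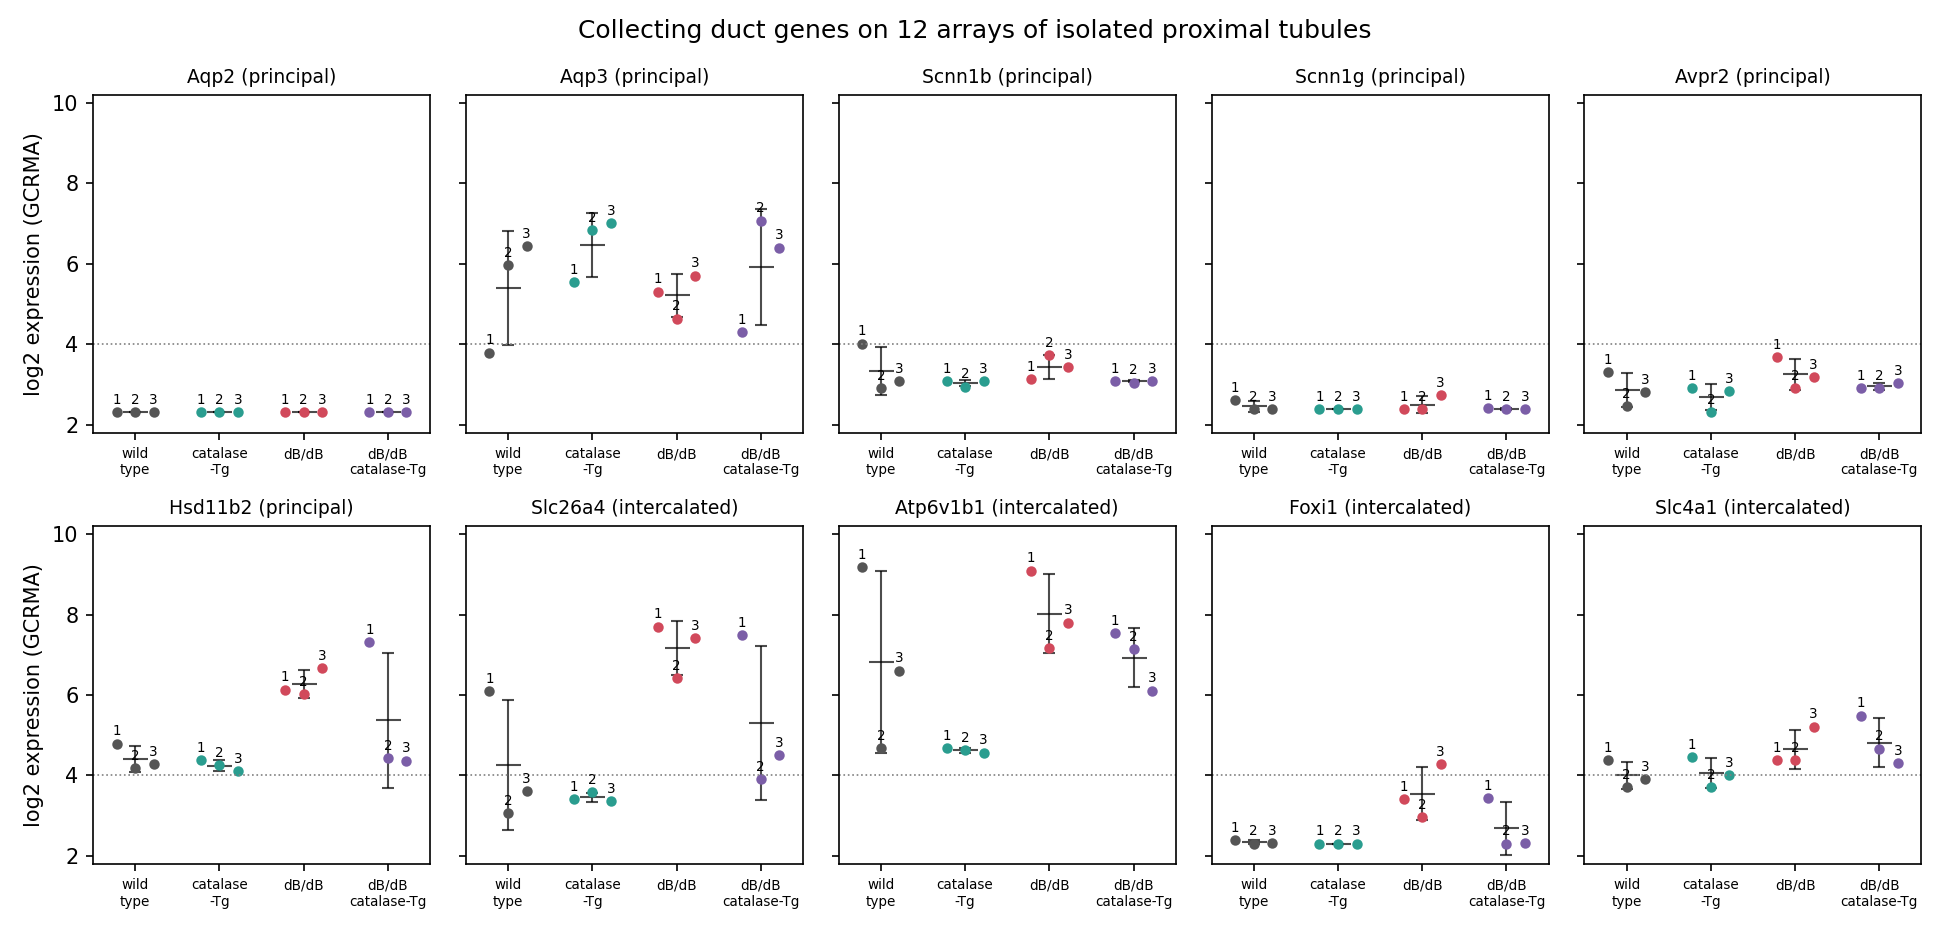
Log2 expression (y axis) of the 10 genes on each array, by group; points carry the sample number, and bars give the mean and SD of 3 arrays, with the filter of 4 dotted. Hsd11b2, Slc26a4 and Foxi1 read highest on the dB/dB arrays and on dB/dB catalase-Tg 1, but Foxi1 exceeded 4 on dB/dB 3 only. Atp6v1b1 was highest on wild type 1 (9.17), and Aqp2 was at the floor on all 12.

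Among principal cell genes, the vasopressin-regulated water channel Aqp2, the defining transcript of that cell, was at the floor of 2.302 on all 12 arrays. Its single probe set therefore gives no level and no difference. Avpr2, the vasopressin receptor gene that acts through cyclic AMP, read 3.31, 2.45 and 2.81 in wild type 1, 2 and 3, and 2.90, 2.302 and 2.83 in catalase-Tg. The dB/dB arrays read 3.67, 2.90 and 3.18, and the dB/dB catalase-Tg arrays 2.90, 2.90 and 3.03. The 4 groups overlapped and no value reached 4.

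Scnn1b and Scnn1g encode subunits of ENaC. Scnn1b, the beta subunit, read 4.01 on wild type 1 and between 2.91 and 3.72 on the other arrays, with the same value of 3.09 on 5 of the 12. Scnn1g, the gamma subunit, lay between 2.38 and 2.73, with the same value of 2.38 on 8. Repeated values like these carry no order. Readings above them came from wild type 1 and the 3 dB/dB arrays for Scnn1b, and for Scnn1g from wild type 1, dB/dB catalase-Tg 1, and samples 1 and 3 of dB/dB, with dB/dB 1 (2.379) above by less than 0.01.

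Aqp3, the water channel of the basolateral membrane, was above 4 on 11 of 12 arrays. It read 3.79, 5.97 and 6.44 in wild type 1, 2 and 3, and 5.55, 6.84 and 7.02 in catalase-Tg. In dB/dB it read 5.31, 4.63 and 5.71, and in dB/dB catalase-Tg 4.30, 7.07 and 6.40. Its lowest readings were on wild type 1 and dB/dB catalase-Tg 1, where the intercalated genes were high, and all 4 groups overlapped. Group means were 5.40 ± 1.42 (SD, n = 3), 6.47 ± 0.80, 5.22 ± 0.54 and 5.93 ± 1.45 in that order of groups. In no pair of groups did its difference pass, the smallest adjusted p being 0.335 (limma) for dB/dB against catalase-Tg, at -1.25 (log2, SE 0.81). Of its other probe sets, 2 had means of 5.18 and 4.82 and read 4.15 and 3.61 on wild type 1, and 1 stayed at the floor.

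Hsd11b2 encodes the enzyme that inactivates glucocorticoid and so keeps the mineralocorticoid receptor selective for aldosterone. It read 4.79, 4.18 and 4.27 in wild type and 4.37, 4.26 and 4.10 in catalase-Tg. The dB/dB arrays read 6.13, 6.02 and 6.68, above every array of both groups without the leptin receptor mutation. In dB/dB catalase-Tg the arrays split, with 7.31 on sample 1 and 4.43 and 4.36 on samples 2 and 3. Group means were 4.42 ± 0.33 (SD, n = 3), 4.24 ± 0.14, 6.28 ± 0.35 and 5.37 ± 1.68. The order of means was dB/dB, dB/dB catalase-Tg, wild type, catalase-Tg, and the last 3 overlapped one another.

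Among intercalated cell genes, Foxi1 was at or within 0.01 of the floor on 7 of 12 arrays. It read 2.39, 2.302 and 2.307 in wild type and 2.302 on each catalase-Tg array. In dB/dB it read 3.41, 2.96 and 4.27, and in dB/dB catalase-Tg 3.44, 2.303 and 2.307. All dB/dB arrays lay above all wild-type and catalase-Tg arrays, but only dB/dB 3 exceeded 4, so the gene was not tested and a difference from arrays at the floor has no size.

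Slc26a4 is pendrin, the chloride-bicarbonate exchanger of base-secreting intercalated cells, and spanned 4.64 log2 units across the arrays. It read 6.10, 3.06 and 3.61 in wild type and 3.41, 3.59 and 3.36 in catalase-Tg. The dB/dB arrays read 7.70, 6.42 and 7.41, and the dB/dB catalase-Tg arrays 7.49, 3.90 and 4.51. Every dB/dB array was above every wild-type and catalase-Tg array, and dB/dB catalase-Tg 1 read like a dB/dB array. Group means were 4.26 ± 1.62 (SD, n = 3), 3.45 ± 0.12, 7.18 ± 0.67 and 5.30 ± 1.92.

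Atp6v1b1, the kidney B1 subunit of the proton pump, spanned 4.61 units. It read 9.17, 4.67 and 6.60 in wild type, and 4.68, 4.63 and 4.57 in catalase-Tg. In dB/dB it read 9.09, 7.16 and 7.80, and in dB/dB catalase-Tg 7.54, 7.14 and 6.11. Its highest reading was on wild type 1, its 3 catalase-Tg readings had an SD of 0.06, and wild type 2 lay among them. Like Slc26a4, it read above all catalase-Tg arrays on each dB/dB catalase-Tg array.

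Slc4a1, the basolateral anion exchanger AE1 of acid-secreting intercalated cells and also of red blood cells, moved over 1.77 units only. It read 4.38, 3.71 and 3.90 in wild type, and 4.46, 3.71 and 4.01 in catalase-Tg. The dB/dB arrays read 4.37, 4.37 and 5.21, and the dB/dB catalase-Tg arrays 5.48, 4.66 and 4.30. Means of 4.00, 4.06, 4.65 and 4.82 had SDs of 0.34 to 0.61, and neighbouring groups overlapped. Wild type 2 and catalase-Tg 2 had the same value, as did dB/dB 1 and 2, and such repeated values carry no order. The overlap of dB/dB with wild type rests on 4.3748 on dB/dB 1 and 2 against 4.3752 on wild type 1. Its second probe set, of mean 4.06, had dB/dB (4.20 to 5.64) above wild type (2.94 to 3.92), a difference of 1.61 (SE 0.60, adjusted p = 0.767, limma), and read 5.05 on catalase-Tg 1. Its remaining probe set was at the floor throughout.

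The first question is what differs between dB/dB and wild type, groups that differ in the leptin receptor mutation and not in the transgene. Wild type 2 and 3 also carried Xist, which read at most 2.55 on the dB/dB arrays, and the part of sex was not tested. Of the 5 tested, 4 had a higher mean in dB/dB, and 0 passed (limma, adjusted p of 0.767 or more), where 0% of 18144 probe sets were called. Slc26a4 differed by 2.92 (log2, SE 0.94, 95% interval 0.83 to 5.01) and Hsd11b2 by 1.86 (SE 0.64, 0.44 to 3.29), both at an unadjusted p under 0.05 (0.0108 and 0.0154), as were 4.16% of all probe sets. These were also the 2 of 5 without overlap between the groups, and 2.52% of probe sets had all dB/dB arrays above all wild-type arrays, 8.91% all below. Slc26a4 passed the filter through arrays where it was high, those of dB/dB among them, so its separation was partly set by that entry. Atp6v1b1 differed by 1.20 (SE 0.93), Slc4a1 by 0.66 (SE 0.36) and Aqp3 by -0.19 (SE 0.81), the last turning to 0.10 without wild type 2, 0.34 without wild type 3 and 0.11 without dB/dB 2. The median of all probe sets was -0.11.

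Wild type 1 decided part of these sizes. Without it Slc26a4 differed by 3.85 (adjusted p = 0.0787) and Atp6v1b1 by 2.38 (adjusted p = 0.103), while Atp6v1b1 was 0.13 without wild type 2 and 0.66 without dB/dB 1. Slc4a1 was 0.38 without dB/dB 3. The 3 arrays of low weight were picked for removal after the data were seen. Each had the lowest correlation with its own group among that group's arrays, so removing them narrows the spread within groups. Calls made without them therefore cannot settle whether a gene differed. With them removed together, Hsd11b2 (2.05, adjusted p = 0.00155), Slc26a4 (3.85, adjusted p = 0.00159) and Atp6v1b1 (2.38, adjusted p = 0.0389) passed (limma). Against 0 with every array kept, 4892 probe sets passed in that fit. That fit leaves wild type 2 and 3, the arrays that carry Xist, as the wild-type group, and the part of sex in it was not tested. Without wild type 2 and 3 instead, Atp6v1b1 was -1.16, Aqp3 1.43 and Slc26a4 1.08. That fit leaves wild type 1 as the only wild-type array.

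The transgene in mice with a working leptin receptor is addressed by catalase-Tg against wild type. No member passed (0 of 5, limma), against 0.022% of all probe sets, and no member's groups separated, against 5.74% of probe sets upward and 7.8% downward. Atp6v1b1 differed by -2.19 (log2, SE 0.93, unadjusted p = 0.0396, adjusted p = 0.534) and was the 1 of 5 under 0.05 unadjusted, against 9.15% of all probe sets. It was -1.01 without wild type 1 and -3.26 without wild type 2. Without wild type 2 and 3 it was -4.55, in a fit that leaves wild type 1 as the only wild-type array. That fit was chosen after the data were seen. Aqp3 differed by 1.07 (SE 0.81), Slc26a4 by -0.81 (SE 0.94), Hsd11b2 by -0.17 (SE 0.64) and Slc4a1 by 0.06 (SE 0.36). Without wild type 1, Slc26a4 turned to 0.12, Hsd11b2 to 0.01 and Aqp3 fell to 0.26, and Slc4a1 turned to -0.08 without wild type 2 and -0.14 without catalase-Tg 1.

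The transgene in diabetic mice is addressed by dB/dB catalase-Tg against dB/dB. Slc26a4 differed by -1.88 (log2, SE 0.94, 95% interval -3.97 to 0.21), Atp6v1b1 by -1.09 (SE 0.93) and Hsd11b2 by -0.91 (SE 0.64), against 0.71 (SE 0.81) for Aqp3 and 0.16 (SE 0.36) for Slc4a1. None passed (0 of 5, adjusted p of 0.636 or more, limma), against 0.00551% of all probe sets, none was under 0.05 unadjusted, against 7.5%, and every member's groups overlapped, where 4.87% and 11.1% separated upward and downward. Several of these sizes moved with single arrays. Without dB/dB catalase-Tg 1 Slc26a4 was -2.97 (adjusted p = 0.189), Hsd11b2 -1.88 (adjusted p = 0.108), Aqp3 1.52 (adjusted p = 0.245) and Slc4a1 turned to -0.17, while without dB/dB catalase-Tg 2 they were -1.18, -0.44 and 0.14 for the first 3. Without dB/dB catalase-Tg 3, Hsd11b2 was -0.41 and Aqp3 0.47, and without dB/dB 2 Aqp3 was 0.42. Atp6v1b1 was -0.55 without dB/dB 1 and -0.68 without dB/dB catalase-Tg 3. The 3 arrays of low weight were picked for removal after the data were seen. Without them, Slc26a4 (adjusted p = 0.00288), Hsd11b2 (0.00182) and Aqp3 (0.0153) passed at those sizes among 4985 probe sets (limma). With array weights the same genes and Atp6v1b1 passed (adjusted p = 0.00198, 0.00207, 0.0283 and 0.0333, limma) among 6989. Array weights come from these same data and count less the arrays that lie far from their own group. Calls made with them therefore cannot settle whether a gene differed.

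Within transgenic mice, dB/dB catalase-Tg against catalase-Tg had Atp6v1b1 higher in 3 of 3 arrays, by 2.304 (log2, SE 0.93, 95% interval 0.24 to 4.37, unadjusted p = 0.0321, adjusted p = 0.704). Slc26a4 was also without overlap, at 1.85 (SE 0.94), so 2 of 5 separated upward and 0 downward, against 6.67% and 9.35% of all probe sets. Slc26a4 exceeded 4 on no catalase-Tg array and passed the filter through arrays where it was high, which limits that count. Hsd11b2 differed by 1.13 (SE 0.64), Slc4a1 by 0.75 (SE 0.36) and Aqp3 by -0.54 (SE 0.81). No member passed (0 of 5, limma), against 0.0276% of probe sets, and 1 of 5 was under 0.05 unadjusted, against 6.86%. Without dB/dB catalase-Tg 1, Slc26a4 fell to 0.75, Slc4a1 to 0.42 and Hsd11b2 to 0.15, Aqp3 turned to 0.27, and Atp6v1b1 was 2.00. With array weights Atp6v1b1 passed (2.01, adjusted p = 0.0482, limma), among 883 of 18144 probe sets. The weights come from these same data, so that call cannot settle whether the gene differed.

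Between dB/dB catalase-Tg and wild type, all 5 means were higher with both alleles. Slc4a1 differed by 0.82 (log2, SE 0.36, unadjusted p = 0.0438), Slc26a4 by 1.04 (SE 0.94), Hsd11b2 by 0.95 (SE 0.64), Aqp3 by 0.53 (SE 0.81) and Atp6v1b1 by 0.11 (SE 0.93), each with adjusted p = 1 (limma). The count was 0 of 5, against 0.00551% of probe sets, and 1 of 5 unadjusted, against 3.46%. No member separated, where 0.942% of probe sets did upward and 7.1% downward. Without dB/dB catalase-Tg 1, Slc26a4 turned to -0.05, Hsd11b2 to -0.02 and Atp6v1b1 to -0.19, and Slc4a1 fell to 0.48. Aqp3 turned to -0.28 without wild type 1 and to -0.05 without dB/dB catalase-Tg 2, and Atp6v1b1 to -0.96 without wild type 2.

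Slc26a4, Atp6v1b1, Hsd11b2 and Aqp3 had their largest difference in size between dB/dB and catalase-Tg, and Slc4a1 did not. These groups differ in both factors, so mutation and transgene cannot be told apart there. Slc26a4 was higher in dB/dB by 3.73 (log2, SE 0.94, 95% interval 1.64 to 5.82), Atp6v1b1 by 3.39 (SE 0.93, 1.33 to 5.46) and Hsd11b2 by 2.03 (SE 0.64, 0.61 to 3.46), each in 3 of 3 arrays. Their adjusted p values of 0.0694, 0.0777 and 0.0931 (limma) missed the threshold, so 0 of 5 passed, against 0.215% of probe sets. Slc4a1 differed by 0.59 (SE 0.36), or 0.31 without dB/dB 3, and Aqp3 by -1.25. Upward separation was seen for 3 of 5 and downward for none, against 17.5% and 23.4% of all probe sets, and 3 of 5 had an unadjusted p under 0.05, against 27.2%. Among them Slc26a4 exceeded 4 on all dB/dB and no catalase-Tg arrays, so its separation was partly set by the filter. Over all alternatives the sizes lay between 3.47 and 4.11 for Slc26a4, 2.86 and 3.82 for Atp6v1b1, and 1.83 and 2.20 for Hsd11b2. Many alternatives, such as another filter, another spread estimate or leaving out an array of another group, could not change these sizes.

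Calls in that comparison changed with arrays outside it, which enter through the shared estimate of spread. Without wild type 1, Slc26a4 (adjusted p = 0.0147, limma) and Atp6v1b1 (0.00789) passed, and without wild type 2 both did (0.0403 and 0.0216). Without dB/dB catalase-Tg 1, Slc26a4 (0.0433) and Hsd11b2 (0.0177) did. Probe sets passing in these fits numbered 2741, 1258 and 764, in that order. With the 6 arrays of these groups alone, Slc26a4, Atp6v1b1 and Hsd11b2 passed (adjusted p = 0.00119, 0.00448 and 0.00203, limma). They were among 3821 of 18144 probe sets that did, against 39 in the fit of all 12. With array weights, which come from these same data, all 5 passed, but so did 9385 of 18144 probe sets in all (limma). Such calls cannot settle whether a gene differed. The members stood at 3.94 for Slc26a4 (adjusted p = 9.3e-05, limma), 3.63 for Atp6v1b1 (0.000272) and 2.20 for Hsd11b2 (0.000145). Aqp3 stood at -1.45 (0.00715) and Slc4a1 at 0.89 (0.00969). Without the 3 arrays of low weight, Slc26a4 (adjusted p = 0.000652, limma), Hsd11b2 (0.000554), Aqp3 (0.00617) and Atp6v1b1 (0.00681) passed among 7167 probe sets. That removal was chosen after the data were seen and narrows the spread within groups.

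**Figure D2:**
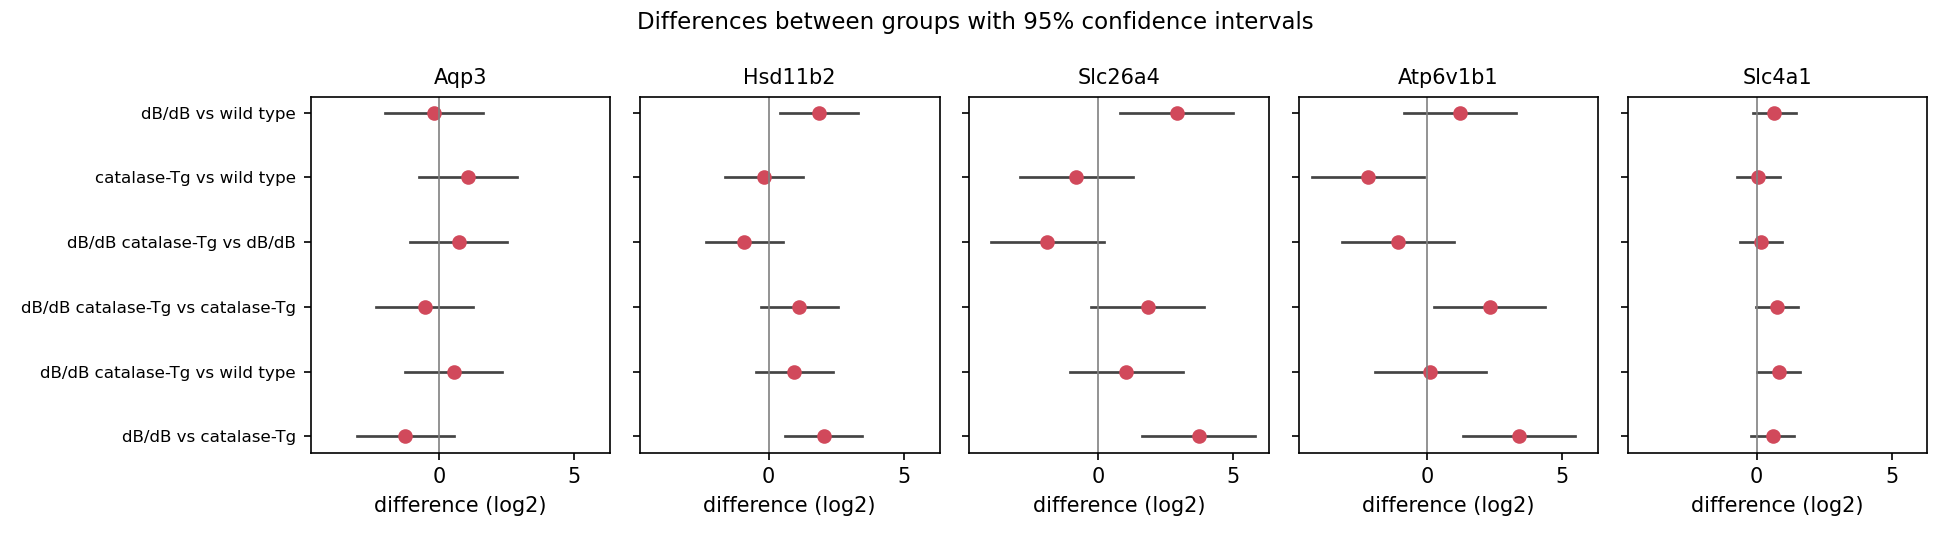
Differences between group means (log2, x axis) with 95% confidence intervals from limma for the 5 tested genes, 1 row for each pair of groups. The intervals of dB/dB against catalase-Tg exclude 0 for Hsd11b2 (0.61 to 3.46), Slc26a4 (1.64 to 5.82) and Atp6v1b1 (1.33 to 5.46), before adjustment over probe sets.

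Over the 4 groups at once, limma's F test gave Slc26a4 an adjusted p of 0.328 (unadjusted 0.0135), Atp6v1b1 0.355 (0.0263), Hsd11b2 0.37 (0.0331), Slc4a1 0.466 (0.101) and Aqp3 0.719 (0.448). None of the 5 passed, against 0.0386% of probe sets, and 3 were under 0.05 unadjusted, against 12.6%. The transgene effect was also compared between diabetic and non-diabetic mice. In that interaction none of the 5 passed (adjusted p = 1.00 each, limma), against 0.00551% of probe sets, and none was under 0.05 unadjusted, against 1.64%. The estimates were -1.07 (SE 1.33) for Slc26a4, 1.10 (SE 1.32) for Atp6v1b1, -0.74 (SE 0.91) for Hsd11b2, -0.36 (SE 1.15) for Aqp3 and 0.10 (SE 0.50) for Slc4a1, with intervals that include 0. Leaving out 1 array moved Slc26a4 between -2.17 (without dB/dB catalase-Tg 1) and -0.38 (without dB/dB catalase-Tg 2), and it was -2.00 and -0.48 without wild type 1 and 2. Hsd11b2 moved between -1.71 (without dB/dB catalase-Tg 1) and -0.23 (without dB/dB catalase-Tg 3). Hsd11b2 passed without the 3 arrays of low weight (-1.83, adjusted p = 0.047, limma), among 150 probe sets. That removal was chosen after the data were seen and narrows the spread within groups.

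Other genes of both cell types were taken from lists. Of 18 other principal cell genes on the array 15 were tested, and of 17 other intercalated cell genes 11. Scnn1a, the alpha ENaC subunit, was named after its values were seen, as the partner of Scnn1b and Scnn1g. It read 8.68, 4.13 and 6.39 in wild type, 4.26, 4.88 and 4.53 in catalase-Tg, 8.18, 7.52 and 7.90 in dB/dB, and 7.51, 6.51 and 7.03 in dB/dB catalase-Tg. Its dB/dB arrays lay above all catalase-Tg arrays, by 3.31 in mean, a spread over arrays that the beta and gamma probe sets did not show.

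The 4 other principal cell genes with the smallest F-test p had their highest mean in dB/dB and their lowest in catalase-Tg. Sgk1, the aldosterone-induced kinase that raises ENaC activity, differed between dB/dB and catalase-Tg by 3.23, the potassium channel gene Kcnj1 by 3.46, the keratin gene Krt7 by 3.95 and the transcription factor gene Gata3 by 2.63. Krt7 read 9.57, 5.05 and 7.51 in wild type and 4.83, 4.78 and 5.27 in catalase-Tg. In dB/dB it read 9.30, 8.61 and 8.83, and in dB/dB catalase-Tg 8.98, 7.61 and 7.42. Kcnj1, also a transcript of the thick ascending limb, read at least 11.48 in dB/dB and at most 8.51 in catalase-Tg.

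Among other intercalated cell genes the corresponding 4 were Oxgr1, the receptor for alpha-ketoglutarate, at 3.35, Rhcg, an ammonia transporter, at 4.15, Atp6v0d2, a further proton pump subunit, at 2.38, and Bsnd, the chloride channel subunit barttin, at 2.86. Rhcg read 9.12, 3.94 and 6.46 in wild type and 3.49, 4.69 and 4.38 in catalase-Tg. The dB/dB arrays read 8.64, 8.19 and 8.20, and the dB/dB catalase-Tg arrays 8.33, 6.43 and 6.71. Atp6v0d2 read at least 4.84 in dB/dB and at most 3.21 in catalase-Tg, and 6.62 on dB/dB catalase-Tg 1.

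As a list in dB/dB against catalase-Tg, 12 of 15 other principal cell genes were higher, with a median of 1.44, and 10 of 11 other intercalated cell genes, with a median of 2.15, beside -0.08 over all probe sets. None passed (limma), where 0.215% of all probe sets did. In the higher direction 9 and 6 were under 0.05 unadjusted and 1 each in the lower, where 27.2% of all probe sets were under it. Several of the higher genes, among them Gata3, Oxgr1, Atp6v0d2 and Bsnd, exceeded 4 on no catalase-Tg array. They entered the fit through arrays where they were high, so their direction was partly set by the filter. In dB/dB against wild type, 11 of 15 and 7 of 11 were higher (medians 0.70 and 1.28, beside -0.11), 0 passed, and 0 and 1 were under 0.05 unadjusted, where 4.16% of all probe sets were. In catalase-Tg against wild type 12 of 15 and 9 of 11 were lower (medians -0.75 and -1.05, beside -0.02). None passed, where 0.022% of all probe sets did. In the lower direction 5 and 5 were under 0.05 unadjusted and 0 in the higher, where 9.15% of all were. By mean deviation from the 12-array means, wild type 1, 2 and 3 stood at 0.89, -0.74 and 0.04 for the principal list. For the intercalated list they stood at 1.10, -0.87 and 0.004. Catalase-Tg lay at -0.84 to -0.79 and -1.17 to -1.01, nearest to wild type 2 and farthest from wild type 1. Fxyd4, a sodium pump regulator, at -1.41 and Car2, the cytosolic carbonic anhydrase of intercalated and proximal tubule cells, at -1.03 went the other way in dB/dB against catalase-Tg, and were named after their values were seen. Elf5, a principal cell transcription factor, was at the floor on all 12 arrays, and Aqp4, the other basolateral water channel of the principal cell, did not exceed 2.38.

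**Figure D3:**
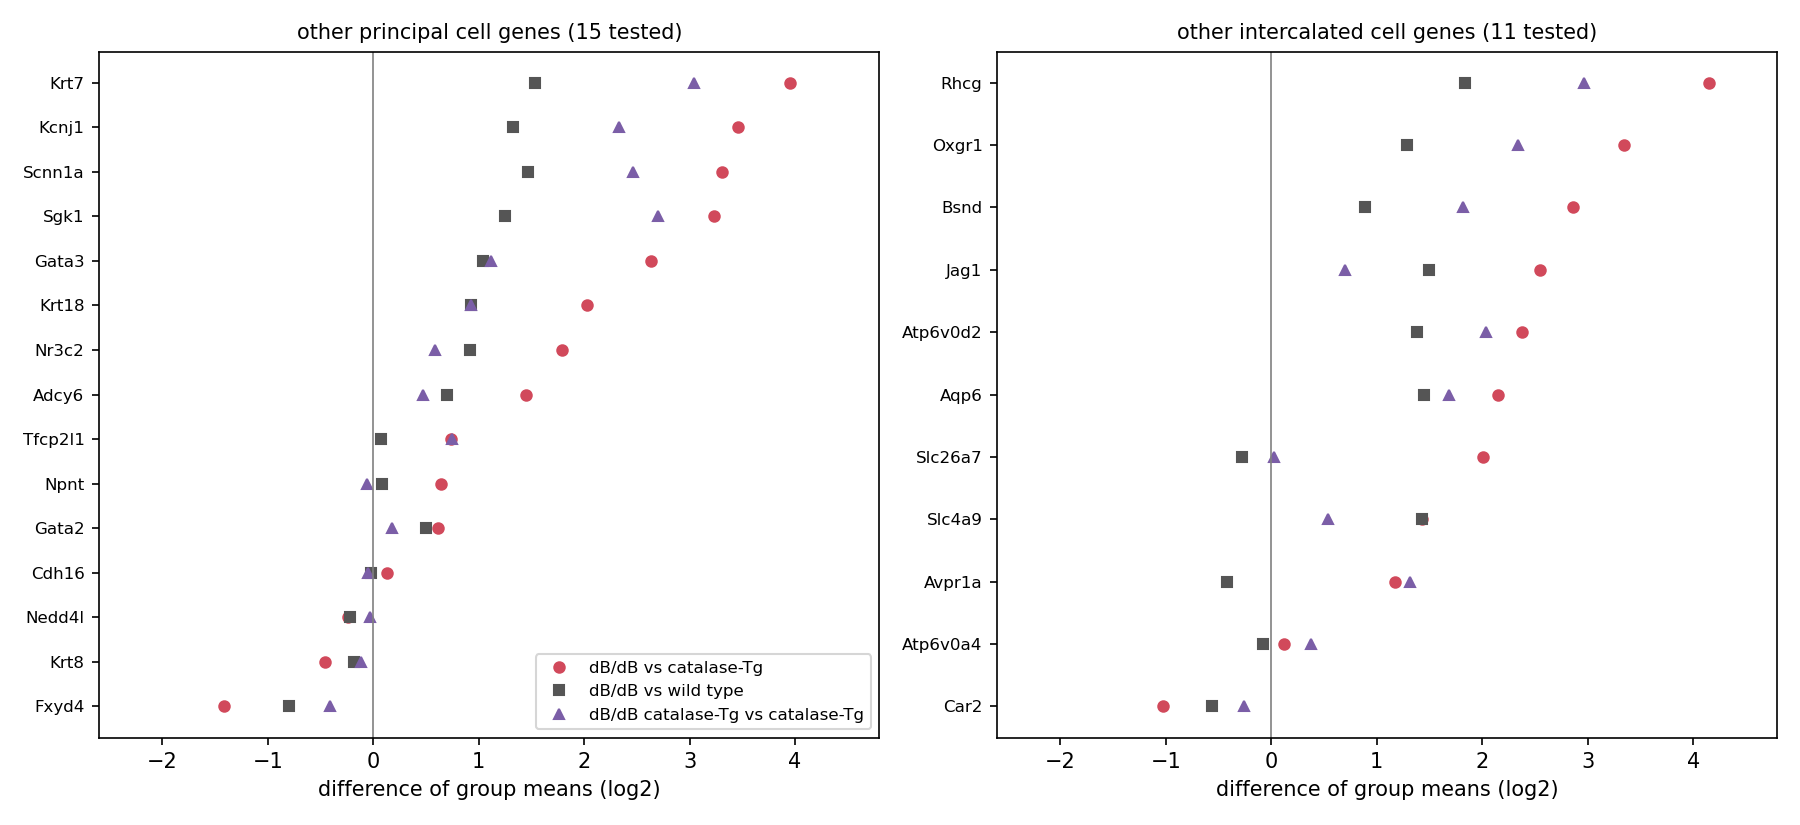
Differences of group means (log2, x axis) for the tested genes of the lists of other principal (left, 15 genes) and other intercalated (right, 11 genes) cell genes, in dB/dB against catalase-Tg (circles), dB/dB against wild type (squares) and dB/dB catalase-Tg against catalase-Tg (triangles). In dB/dB against catalase-Tg, 12 of 15 and 10 of 11 lie above 0, and Fxyd4 and Car2 lie farthest below.

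Likeness to the members was measured as Pearson's r over the 12 arrays, among 9746 genes, as a description without a test, since the arrays share groups and tissue composition. Pea15a (0.981), Cdc42ep5 (0.971), Cdk14 (0.971), Csrp1 (0.969) and Txnip (0.967) were most like the mean profile of Slc26a4, Atp6v1b1 and Slc4a1. With that profile Hsd11b2 had r = 0.85, Avpr2 0.78 and Foxi1 0.77, and Aqp3 -0.69. Foxi1 was at or within 0.01 of the floor on 7 of 12 arrays, and Avpr2 exceeded 4 on none. Their r therefore rests on values near the floor. The mean profile of the principal genes Aqp3 and Hsd11b2 joined a pair that ran against each other (r = -0.62), and its closest genes reached 0.718 to 0.765 only: Apob, Sardh, Slc22a12, Kap and Arnt.

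Markers of other cells moved with the members, and their part in these results was not tested. Each list was scored per array by averaging how far its tested genes lay from their own 12-array means. The 3 tested intercalated genes scored wild type 1, 2 and 3 at 1.21, -1.53 and -0.64, while catalase-Tg stood at -1.16, -1.37 and -1.37. Their scores were 1.71, 0.64 and 1.47 on dB/dB, and 1.496, -0.11 and -0.37 on dB/dB catalase-Tg. The 11 loop and distal tubule markers scored 0.97 to 1.43 on dB/dB, -2.16 to -1.41 on catalase-Tg, -1.62 to 1.60 on wild type and 0.18 to 0.91 on dB/dB catalase-Tg. Calb1, the calcium buffer of the distal tubule, differed by 3.53 between dB/dB and catalase-Tg, and the tight junction gene Cldn16 by 3.97. In that comparison 10 of these 11 markers were higher in dB/dB. So were 6 of 6 podocyte, 11 of 11 endothelial and 5 of 5 mural and fibroblast markers. In each list 0 passed, where 0.215% of all probe sets did. Of the markers, Wt1 (podocyte) and Cdh5 (endothelial) exceeded 4 on no catalase-Tg array. They entered the fit through arrays where they were high, so their direction was partly set by the filter.

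The 6 podocyte markers scored 0.67 to 2.96 on dB/dB and -2.58 to -1.71 on catalase-Tg, with Ptpro, a receptor phosphatase of podocytes, at 4.71 and the cell cycle inhibitor gene Cdkn1c at 4.77 between dB/dB and catalase-Tg. The 11 endothelial markers scored 0.85 to 1.84 and -1.76 to -0.15, with Plvap at 2.63 and Kdr at 2.53. The 5 mural and fibroblast markers scored 1.11 to 2.13 and -2.34 to 0.01, with Rgs5 at 4.31 and Col1a2 at 2.27. The 3 leukocyte markers tested, of 6, overlapped (-0.44 to 1.11 and -1.04 to 0.84), with Csf1r at -0.42 and Lyz2 at 1.38. No marker of these lists was at the floor on all arrays. The leukocyte marker Cd68 (at most 2.32) and the fibroblast marker Col1a1 (at most 2.52) stayed close to it and were not tested.

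Proximal tubule markers ran the other way. All 15 on the array were tested and none was at the floor on all arrays. Their score was -1.80, 0.69 and 0.19 on wild type 1, 2 and 3, -0.08 to 0.61 on catalase-Tg, -0.54 to -0.27 on dB/dB and -0.24, 0.61 and 0.69 on dB/dB catalase-Tg. In dB/dB against catalase-Tg 14 of 15 were lower and 0 passed, where 0.215% of all probe sets did. Slc5a12, a lactate transporter, was at -1.99 and Slc7a9, a cystine transporter subunit, at -1.15. The arrays where intercalated genes read high, namely dB/dB, wild type 1 and dB/dB catalase-Tg 1, were the 5 with the lowest proximal tubule scores.

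**Figure D4:**
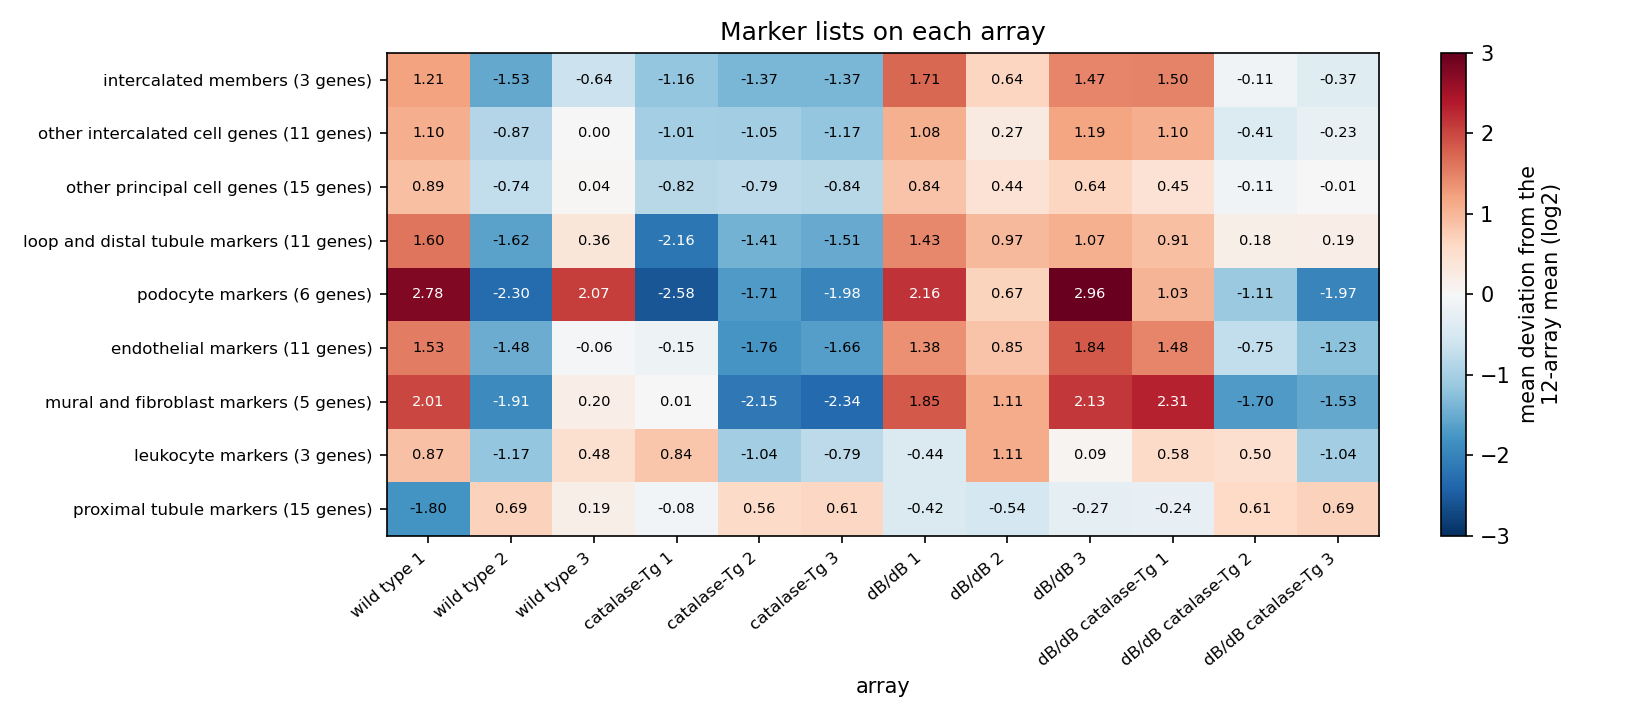
Score of each gene list (rows) on each array (columns), as the mean deviation of its tested genes from the 12-array mean (log2). Intercalated genes were above 0 on wild type 1, the dB/dB arrays and dB/dB catalase-Tg 1, where proximal tubule markers were lowest (-1.80 to -0.24).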

How the data were processed

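RNA was labelled with biotin and hybridized to 12 Affymetrix mouse arrays. The authors deposited 1 log2 value for each probe set. Their processing notes name GCRMA, which corrects background and normalizes between arrays, and limma, without versions. Of 45101 probe sets 64 controls were left out. Of the other 45037, GEO's annotation gives 34945 1 symbol, 932 several and 9160 none; RefSeq (GRCm38.p6) updated 0 symbols.

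Probe sets above 4 on at least 3 arrays (18144) entered 1 limma fit (version 3.58.1, R 4.3.3): 1 mean per group, all 12 arrays in 1 fit, Benjamini-Hochberg over all tested, threshold 0.05, two-sided. The fit was tested on simulated data. SE are moderated; intervals are 95%.

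Members and lists were chosen with earlier results of these data known. Other genes named are the 4 (cell type lists) or 2 (marker lists) of smallest F-test p and the 5 most like each profile. Scnn1a, Fxyd4, Car2, Elf5, Aqp4, Wt1, Cdh5, Cd68, Col1a1, Xist and Eif2s3y fall outside this rule and were named after their values were seen. Alternatives changed the normalization, filter, probe set choice, array weights, spread estimate, arrays fitted and replicate block; 2 sets of arrays left out were chosen after seeing the data.

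Replicate numbers are shared between groups. The main fit did not pair samples by number. For wild type, deviations of same-numbered samples correlated above 0.1 in every pair with catalase-Tg (0.20 to 0.40) and with dB/dB catalase-Tg (0.26 to 0.71). So did those of catalase-Tg with dB/dB catalase-Tg (0.43 to 0.61), and not those of any group with dB/dB. By best match the order differed. Wild type with dB/dB (0.097 to 0.165) had 6 of 6 samples correlating best with their own number. Wild type with catalase-Tg and with dB/dB catalase-Tg had 3 of 6 each, and catalase-Tg with dB/dB catalase-Tg had 4 of 6. Whether the numbers pair samples is therefore not settled.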

Additional observations from a re-analysis of the deposited data

How the results depend on the processing

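The cause of the changes given here was not tested. Of 807 member values under an alternative, 732 kept their direction and side of the threshold, 35 passed only there and 40 turned, 0 of those 40 past the threshold. Many alternatives cannot change a difference of group means, so the count of kept directions does not measure stability. Precision is limited by 3 arrays a group.

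Probe sets called numbered 7 in the F test, 4 for catalase-Tg against wild type, 5 for dB/dB catalase-Tg against catalase-Tg, 1 for it against dB/dB, 1 for it against wild type, 39 for dB/dB against catalase-Tg, 0 for dB/dB against wild type and 1 in the interaction. In that order they were 17, 14, 7, 3, 8, 23, 6 and 6 with no filter, 5, 3, 1, 1, 1, 16, 0 and 1 above 6, and 7760, 6, 883, 6989, 1, 9385, 0 and 1 with array weights. They were 6, 3, 5, 1, 0, 41, 0 and 1 centred on array medians, 7, 4, 3, 1, 1, 71, 0 and 1 after quantile normalization, and 7, 4, 5, 1, 1, 25, 0 and 1 with trended robust spread. The groups of a comparison alone gave 0, 6, 2, 0, 3821 and 0 for the 6 pairs. Without the first array of every group except dB/dB, the 3 of low weight, they were 5730, 29, 12, 4985, 24, 7167, 4892 and 150, and without wild type 2 and 3 they were 1582, 2171, 173, 2, 29, 2390, 0 and 0. Leaving out each array gave 0 to 734, 0 to 271, 0 to 22, 0 to 4, 0 to 7, 0 to 2741, 0 to 106 and 0 to 2.

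The replicate block gave 4, 5, 5, 1, 1, 2186, 0 and 0. With it Slc26a4 (adjusted p = 0.0234) and Atp6v1b1 (0.0285) passed in dB/dB against catalase-Tg (limma), groups that share only a number: 2 of 6 samples correlated best with their own number. It changed no other member's call.

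Turned values with array weights were -0.28 for Slc4a1 in dB/dB catalase-Tg against dB/dB, and 0.23 for Aqp3, -0.047 for Atp6v1b1 and -0.28 for Slc4a1 in the interaction. The mean of all probe sets turned Slc4a1 to -0.18 and -0.34 in these. Without the 3 arrays of low weight, Slc26a4 was 0.14 in catalase-Tg against wild type, Slc4a1 -0.17 in dB/dB catalase-Tg against dB/dB, and Aqp3 0.80, Atp6v1b1 -0.35 and Slc4a1 -0.22 in the interaction. Without wild type 2 and 3, against wild type, dB/dB had Aqp3 at 1.43 and Atp6v1b1 at -1.16, catalase-Tg had Slc4a1 at -0.31, and dB/dB catalase-Tg had Slc26a4 at -0.80 and Atp6v1b1 at -2.24; Slc26a4 was 0.77 in the interaction.

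Leaving out each array, Aqp3 ran from -0.99 to 0.34 in dB/dB against wild type, -1.12 to 0.27 in dB/dB catalase-Tg against catalase-Tg, -0.28 to 1.34 in it against wild type and -0.93 to 0.46 in the interaction. Atp6v1b1 ran from -0.96 to 1.29 in dB/dB catalase-Tg against wild type and -0.076 to 2.18 in the interaction. Hsd11b2 ran from -0.29 to 0.015 in catalase-Tg and -0.018 to 1.46 in dB/dB catalase-Tg against wild type, and Slc26a4 from -1.40 to 0.12 and -0.052 to 1.97. Slc4a1 ran from -0.14 to 0.25 in catalase-Tg against wild type, -0.17 to 0.44 in dB/dB catalase-Tg against dB/dB and -0.24 to 0.38 in the interaction.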
